A study of Mus musculus with 12 samples.

Results

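The 38 genes described here are 34 immediate early genes and 4 inducible heat shock genes, taken by name from a list of known rapid-response genes. The list was chosen with earlier results of these data known, so comparisons of its counts and medians with all genes are descriptive only. All 38 are among the 24421 genes of the count tables. The data are bulk RNA sequencing of mouse pancreatic islets, with 6 libraries of Il22ra1βKO mice (BKO), whose β cells lack interleukin-22 receptor subunit alpha 1, and 6 of Ins2Cre mice (Cre), which serve as controls. Both groups ate a high-fat diet for 6 weeks. By their name the controls carry Cre recombinase driven from the insulin 2 gene. The Cre line behind the knockout, any floxed allele in the controls, age, sex and whether each library is a separate animal are unstated in GEO's labels. The p-values therefore measure the spread between these libraries.

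Immediate early genes are transcribed within minutes of a stimulus from factors already present in the cell, without new protein synthesis. Calcium entry, cAMP and the ERK kinases reach them through the transcription factors CREB, SRF and the ETS partners of SRF. In β cells, glucose-driven depolarisation is a known inducer of several of them, and in any tissue the isolation of cells can induce them too. Inducible heat shock genes are switched on by the factor HSF1 when unfolded protein accumulates. Their products are chaperones that hold and refold other proteins.

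Stretches of promoter are shown for 7 members whose levels are described further on. Each stretch holds a match to a DNA word searched for here. The stretches are the 150 bases before the transcription start, 5′ to 3′ on the strand of the gene, from RefSeq (GRCm38.p6). Capitals mark a pair of heat shock units (GAANNTTC) in Hspa1a and Hspa1b, half-sites of the cAMP response element (TGACG) in Fos and Fosb, and a full element (TGACGTCA) in Dusp1. They mark an EGR word (GCGNGGGCG) in Fosb and Zfp36, a CArG box, the word bound by SRF, in Zfp36, and an AP-1 word (TGANTCA) in Zfp36l1. The stretches lie at chr17:34972157-34972306 (minus strand), chr17:34959239-34959388 (minus), chr12:85473740-85473889 (plus), chr7:19310046-19310195 (minus), chr17:26508473-26508622 (minus), chr7:28379229-28379378 (minus) and chr12:80113014-80113163 (minus).
Hspa1a: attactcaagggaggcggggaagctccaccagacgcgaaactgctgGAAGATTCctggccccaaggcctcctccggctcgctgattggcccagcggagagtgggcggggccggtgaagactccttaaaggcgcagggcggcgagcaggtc
Hspa1b: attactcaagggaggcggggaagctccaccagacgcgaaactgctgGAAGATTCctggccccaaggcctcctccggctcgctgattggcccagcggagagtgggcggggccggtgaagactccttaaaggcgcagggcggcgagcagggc
Fos: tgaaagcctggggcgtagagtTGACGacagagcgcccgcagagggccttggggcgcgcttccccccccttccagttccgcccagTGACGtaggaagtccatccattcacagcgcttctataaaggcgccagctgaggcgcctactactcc
Fosb: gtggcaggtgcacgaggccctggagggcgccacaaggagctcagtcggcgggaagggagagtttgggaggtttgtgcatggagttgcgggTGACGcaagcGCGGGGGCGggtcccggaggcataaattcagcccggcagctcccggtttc
Dusp1: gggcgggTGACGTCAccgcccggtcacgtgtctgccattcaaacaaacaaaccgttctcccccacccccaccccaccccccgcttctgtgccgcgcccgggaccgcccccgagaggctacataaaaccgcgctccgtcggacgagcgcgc
Zfp36: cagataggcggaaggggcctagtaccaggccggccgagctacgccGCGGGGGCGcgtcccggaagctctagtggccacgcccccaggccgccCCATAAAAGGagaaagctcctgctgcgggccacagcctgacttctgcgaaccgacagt
Zfp36l1: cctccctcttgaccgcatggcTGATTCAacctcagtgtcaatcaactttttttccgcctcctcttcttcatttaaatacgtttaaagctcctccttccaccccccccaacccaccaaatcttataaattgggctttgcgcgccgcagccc

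RefSeq windows of 250 bases before the start were at hand for 30 of the 38 members, not for Fosl1, Egr1, Egr3, Ier2, Klf10, Myc, Arc or Sik1. Both strands were searched, and 4 of the 30 genes (Maff, Egr2, Dnajb1 and Hsph1) have more than 1 window. A gene was counted if any of its windows matched, while the shares below are over single windows. For these 4 genes the measures are therefore unlike. The half-site TGACG, which also lies within each full element, was found in 16 of the 30 genes, against 17.8% of all 32851 windows. Full elements were found in Maff, Dusp1 and Btg2, against 1.55% of all windows. The EGR word was in 11 genes, against 4.7% of windows, the CArG box in Egr2 and Zfp36, against 1.47%, and the AP-1 word in Zfp36l1, against 6.75%. GAANNTTC was in Hspa1a, Hspa1b, Jun and Fosl2, against 6.69%, and TTCNNGAA, the same units the other way round, in Hsph1 and Egr2, against 7.17%. A match describes these letters only.

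**Figure D1:**
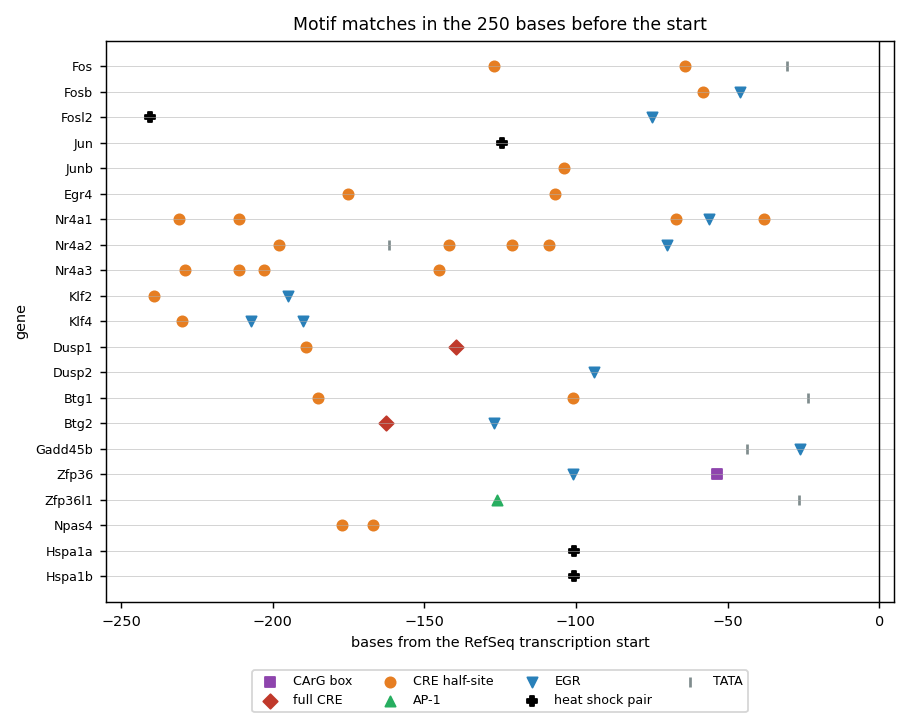
Motif matches by distance from the RefSeq transcription start (x axis, bases) for the 21 members (y axis) that have 1 window of 250 bases and at least 1 match; each symbol is a motif, and TATA stands for TATAAA. Hspa1a and Hspa1b hold their heat shock pair at the same distance, and the 3 Nr4a genes hold several half-sites each.

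The libraries held 10356093 to 11902217 gene reads in BKO and 11444273 to 12397139 in Cre. The targeted gene, Il22ra1, had 1 to 3 reads in BKO libraries and 1 to 5 in Cre libraries, so its loss could not be checked at this depth. The islet label held: Ins2, an insulin gene, was at 54446 to 93700 CPM in BKO and 65067 to 86412 CPM in Cre. CPM, the unit of level used throughout, is a gene's count scaled to the library's total of gene reads after trimmed-mean (TMM) adjustment.

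The immediate early genes were higher in BKO islets almost throughout, by modest amounts that depended on the libraries and covariates in the fit. No single member passed edgeR's test with all libraries and genotype as the only term. Of the 38 members, 35 passed the filter on low counts and 34 of these had a positive log2 fold change of BKO over Cre, against 52.8% of all genes tested. Nr4a2 was the exception. The median log2 fold change was 0.31 over the 31 tested immediate early genes and 0.55 over the 4 heat shock genes, beside 0.0078 over all 13583 genes. Over all genes, 0 members passed edgeR's quasi-likelihood test at a Benjamini-Hochberg adjusted p under 0.05, and 0.0% of all genes did. At an unadjusted p under 0.05, 19 members were higher and 0 lower, beside 8.7% of all genes higher and 4.66% lower. With 1 library left out, 11 to 27 members were higher. Without BKO-2, 11 members were higher and 0 lower, beside 5.54% of all genes higher and 4.03% lower. Without BKO-1, 27 members were higher and 0 lower, beside 8.05% of all genes higher. With the mean level of 12 endothelial markers as a covariate, 24 of the 35 members were positive, and the median was 0.063 for the immediate early genes and 0.19 for the heat shock genes. In that fit 1 member was higher (Btg2) and 1 lower (Klf2), beside 2.05% of all genes higher and 1.41% lower. The endothelial mean itself differed with genotype, at 5.24 to 5.75 log2 CPM in BKO and 4.85 to 5.41 in Cre. Covariate and genotype therefore cannot be cleanly told apart in this fit. With the mean of the acinar markers as a covariate, 34 members were positive. The medians were then 0.26 for the immediate early genes and 0.39 for the heat shock genes. By that fit 9 members were higher and 0 lower, beside 6.12% of all genes higher and 2.62% lower. DESeq2 on the same counts called 5 members higher (Klf10, Ier2, Zfp36l1, Ier3 and Egr1), beside 1.24% of all genes called higher and 0.398% called lower. Blocked by replicate number, edgeR called 3 members higher (Ier2, Klf10 and Zfp36l1), beside 292 of 13583 genes higher and 72 lower. The labels do not state such a pairing.

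**Figure D2:**
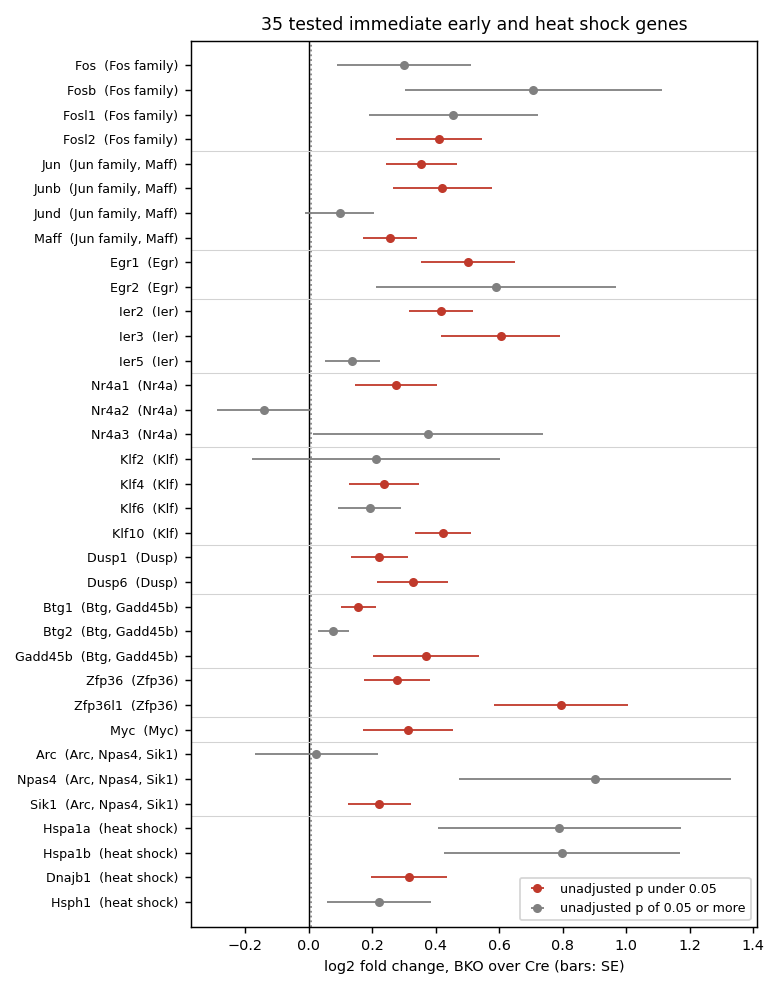
Log2 fold change of BKO over Cre (x axis, bars are standard errors from edgeR) for the 35 tested members (y axis, by role); the dotted line is the median of all genes tested, 0.0078. Points lie to the right of 0 for every tested member but Nr4a2, and the 19 in red have an unadjusted p under 0.05.

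Per length, the most abundant member was Jund, with 186 CPM per kilobase of exon in BKO and 174 in Cre. Junb was at 53.9 in BKO and 40.2 in Cre, Jun at 53.3 in BKO and 41.6 in Cre, and Btg2 at 47.9 in BKO and 45.4 in Cre. The order of these 3 differed between the groups. At the other end, Egr3, Egr4 and Dusp2 did not pass the filter on low counts. Egr3 had 3 to 11 reads per BKO library and 3 to 14 per Cre library, Egr4 had 0 to 2 in BKO and 0 to 3 in Cre, and Dusp2 had 1 to 11 in BKO and 2 to 6 in Cre. Differences in these 3 genes were not detectable at this depth.

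The Fos family, the Jun family and the small Maf protein Maff form dimers that bind AP-1 and related sites. All 8 genes had a positive log2 fold change, and Fosl2, Jun, Junb and Maff were among the 19. Fosl2, a slower and longer-lived Fos protein, ranged from 43.4 to 81.7 CPM (median 52.3) in BKO libraries and from 38.9 to 49.3 CPM (median 42.5) in Cre libraries. Every BKO library lay above the Cre mean, and 4 lay above all Cre libraries (log2 fold change 0.41 ± 0.14 (SE), edgeR adjusted p = 0.222). Without BKO-2, its highest library, the log2 fold change was 0.27.

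Jun, the core partner of Fos, was at 115 to 200.4 CPM (median 179) in BKO and 125 to 144 CPM (median 129) in Cre. In 5 of 6 BKO libraries its level was above all Cre libraries, while BKO-1 was below all of them, which gave a log2 fold change of 0.36 ± 0.11 (edgeR adjusted p = 0.206). With 1 library left out it lay between 0.29, without BKO-2, and 0.44, without BKO-1. Its adjusted p was 0.0530 to 0.978 over all alternatives, the lowest being edgeR's without BKO-1. Junb, a Jun protein that can restrain Jun, was at 102 to 169 CPM (median 109) in BKO and 76.6 to 116 CPM (median 89.4) in Cre (log2 fold change 0.42 ± 0.16, edgeR adjusted p = 0.279). The groups overlapped, with 2 BKO libraries above all Cre libraries.

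Maff was at 40.8 to 58.6 CPM (median 51.7) in BKO, against a narrow 39.7 to 43.4 CPM (median 41.9) in Cre. Its log2 fold change was 0.26 ± 0.084 (edgeR adjusted p = 0.206), with 4 BKO libraries above the Cre range. Jund, the Jun protein that most cells express at rest, was at 209 to 384 CPM (median 319) in BKO and 254 to 314 CPM (median 293) in Cre, and its log2 fold change was 0.097 ± 0.11. The groups overlapped widely. Fosl1, which follows Fos in growth responses, was low, at 2.29 to 4.68 CPM in BKO and 1.28 to 3.95 CPM in Cre.

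Fos and Fosb, the archetypes of the class, were spread widely in BKO. They did not meet the rule for named genes and were chosen after their values were seen, as were Npas4, Arc, Fosl1, Egr2, Nr4a2, Nr4a3 and Klf2. Fosb ranged from 12.8 to 106 CPM (median 52.5) in BKO and from 24.9 to 44.9 CPM (median 31.2) in Cre. Its lowest value of the 12 was in BKO-1 and its highest in BKO-3, and the log2 fold change was 0.71 ± 0.40 (edgeR adjusted p = 0.505). It was 0.91 ± 0.28 without BKO-1 and 0.41 ± 0.37 without BKO-3, and its adjusted p was 0.231 to 0.978 over all alternatives. Fos was at 19.3 to 44.0 CPM (median 23.2) in BKO and 15.9 to 28.9 CPM (median 21.4) in Cre (log2 fold change 0.30 ± 0.21, edgeR adjusted p = 0.603). Without BKO-3 its log2 fold change was 0.10 ± 0.15. For both genes the groups overlapped.

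**Figure D3:**
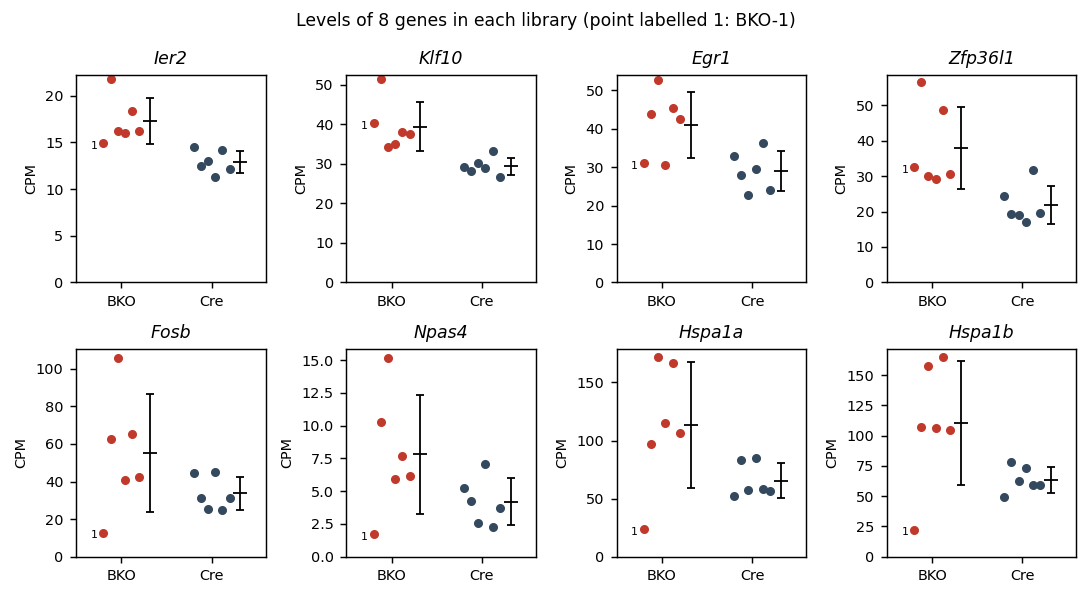
Level in each library (y axis, CPM) of 8 genes, BKO left of Cre; points are libraries and black marks the mean with its SD (n = 6 each). For Ier2 and Klf10 all BKO points lie above all Cre points, and for Fosb, Npas4, Hspa1a and Hspa1b BKO-1, labelled 1, is the lowest of the 12.

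The zinc finger factors of the Egr family bind GC-rich sites and are targets of ERK. Egr1, the best known of them, was at 30.6 to 52.6 CPM (median 43.3) in BKO and 22.7 to 36.3 CPM (median 28.8) in Cre. Every BKO library was above the Cre mean and 4 were above all Cre libraries, with a log2 fold change of 0.50 ± 0.15 (edgeR adjusted p = 0.192). DESeq2 called it (adjusted p = 0.0445), while with the endothelial covariate in edgeR its log2 fold change was 0.14 ± 0.18. Egr2 was low, at 0.457 to 1.89 CPM in BKO and 0.442 to 1.81 CPM in Cre, and the groups overlapped.

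Nr4a1, Nr4a2 and Nr4a3 are orphan nuclear receptors induced by calcium and cAMP. Nr4a1 spread over 14.7 to 28.3 CPM (median 24.0) in BKO and was nearly constant in Cre, at 18.0 to 19.2 CPM (median 18.6). Of the BKO libraries 4 were above all Cre libraries and 2, BKO-1 and BKO-6, below all of them (log2 fold change 0.27 ± 0.13, edgeR adjusted p = 0.369). Nr4a2 was at 7.95 to 14.3 CPM (median 11.3) in BKO and 9.63 to 15.7 CPM (median 11.97) in Cre, with a log2 fold change of -0.14 ± 0.15 (edgeR adjusted p = 0.751). Nr4a3 was at 0.732 to 2.27 CPM in BKO and 0.353 to 1.81 CPM in Cre.

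Among the Krüppel-like factors, Klf10, an early target of TGF-β, had the smallest p of the 35 tested members. It was at 34.3 to 51.4 CPM (median 37.9) in BKO and 26.7 to 33.2 CPM (median 29.1) in Cre. The groups did not overlap, and the log2 fold change was 0.42 ± 0.089 (edgeR adjusted p = 0.121, DESeq2 adjusted p = 0.0127). With edgeR it was called without BKO-4 (adjusted p = 0.0259), where 0.989% of all genes were called higher and 0.93% lower. The same held without Cre-5 (adjusted p = 0.0356), where 0.77% were called higher and 0.0367% lower. Over all alternatives its log2 fold change was 0.24 to 0.46 and its adjusted p 0.0127 to 0.978, the lowest fold change and the highest p being with the endothelial covariate. Klf10 lies on chromosome 15 from 38291463 to 38300706 (GRCm38, which is mm10, minus strand) and overlaps no other annotated gene.

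Klf4, a factor of epithelial and endothelial cells, was at 12.3 to 17.0 CPM (median 15.5) in BKO and 10.5 to 15.5 CPM (median 12.6) in Cre (log2 fold change 0.24 ± 0.11, edgeR adjusted p = 0.361). Klf6 was at 42.5 to 72.2 CPM (median 63.4) in BKO and 48.6 to 58.6 CPM (median 53.6) in Cre, with a log2 fold change of 0.19 ± 0.099 (edgeR adjusted p = 0.425). In both the groups overlapped. Klf2, a gene of endothelium under flow, was barely expressed, at 0.431 to 3.03 CPM in BKO and 0.688 to 2.14 CPM in Cre.

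The Ier genes encode small early response proteins. Ier2 was the other member whose groups did not overlap, at 14.9 to 21.7 CPM (median 16.2) in BKO and 11.3 to 14.4 CPM (median 12.7) in Cre. Across all genes tested, 0.331% had every BKO library above every Cre library, and 0.177% had every one below. The log2 fold change of Ier2 was 0.42 ± 0.10 (edgeR adjusted p = 0.146, DESeq2 adjusted p = 0.0292), and edgeR called it without BKO-4 (adjusted p = 0.0480). Over all alternatives its log2 fold change was 0.13 to 0.45 and its adjusted p 0.0292 to 0.978, again with the endothelial covariate at the low end of the fold changes. The gene (GRCm38 chromosome 8, 84661331 to 84662852, minus strand) overlaps no other.

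Ier3, a survival factor also induced by NF-κB, was at 37.0 to 79.1 CPM (median 48.3) in BKO and 26.9 to 43.3 CPM (median 32.5) in Cre. All BKO libraries were above the Cre mean and 4 above the Cre range (log2 fold change 0.61 ± 0.19, edgeR adjusted p = 0.210, DESeq2 adjusted p = 0.0347). With the endothelial covariate in edgeR its log2 fold change was 0.23 ± 0.27. Ier5, which acts on HSF1, was at 40.6 to 61.7 CPM (median 46.9) in BKO, against a narrow 43.5 to 46.3 CPM (median 44.4) in Cre (log2 fold change 0.14 ± 0.087). BKO libraries lay on both sides of the Cre range.

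Feedback inhibitors of the response were higher in most BKO libraries as well. Dusp1 and Dusp6 remove phosphate from MAP kinases, Dusp6 mainly from ERK. Dusp1 was at 43.0 to 67.1 CPM (median 53.1) in BKO and 40.7 to 50.8 CPM (median 44.9) in Cre (log2 fold change 0.22 ± 0.089, edgeR adjusted p = 0.293). Dusp6 was at 19.1 to 30.4 CPM (median 23.3) in BKO and 16.2 to 22.1 CPM (median 20.3) in Cre (log2 fold change 0.33 ± 0.11, edgeR adjusted p = 0.222). For each, 5 of 6 BKO libraries were above the Cre mean and 4 above the Cre range. Without BKO-2 the log2 fold change of Dusp1 was 0.13.

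Zfp36 and Zfp36l1 encode proteins that bind AU-rich elements and speed the decay of early and cytokine mRNAs. Zfp36l1 had the largest log2 fold change among the 19, 0.79 ± 0.21 (edgeR adjusted p = 0.169, DESeq2 adjusted p = 0.00968). With the endothelial covariate in edgeR it was 0.089 ± 0.15 (adjusted p = 0.978). It was at 29.3 to 56.6 CPM (median 31.6) in BKO and 17.0 to 31.8 CPM (median 19.4) in Cre. Every BKO library was above the Cre mean, and the groups met only through Cre-5, the highest control. Zfp36 was at 25.001 to 39.3 CPM (median 33.8) in BKO and 25.4 to 33.5 CPM (median 26.3) in Cre, with a log2 fold change of 0.28 ± 0.10 (edgeR adjusted p = 0.259).

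Btg1 and Btg2 are antiproliferative genes that recruit deadenylases, and Gadd45b acts in stress signalling. Btg1 had a small and even difference, 78.7 to 93.5 CPM (median 87.9) in BKO and 73.0 to 82.0 CPM (median 77.4) in Cre (log2 fold change 0.16 ± 0.055, edgeR adjusted p = 0.229). Gadd45b was at 23.9 to 40.9 CPM (median 31.2) in BKO and 17.5 to 34.3 CPM (median 23.4) in Cre, a log2 fold change of 0.37 ± 0.17 (edgeR adjusted p = 0.359). Btg2 was at 123 to 135 CPM (median 134) in BKO and 114 to 133 CPM (median 124) in Cre. Its log2 fold change was 0.078 ± 0.050. The groups overlapped for Btg1, Btg2 and Gadd45b alike.

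Myc, the growth-promoting transcription factor, was at 19.9 to 37.3 CPM (median 26.6) in BKO and 19.9 to 29.0 CPM (median 20.8) in Cre (log2 fold change 0.31 ± 0.14, edgeR adjusted p = 0.359). BKO-5 was its highest library, without which the log2 fold change was 0.19, and among controls Cre-5 stood above the rest.

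Arc, Npas4 and Sik1 are known as genes of electrical activity and cAMP signalling. Npas4, a factor that depolarisation induces in neurons and β cells, had the largest fold change of the tested members with all libraries in the fit, and one of the widest spreads. It was at 1.72 to 15.2 CPM (median 6.93) in BKO and 2.30 to 7.06 CPM (median 3.99) in Cre, and BKO-1 and BKO-3 were its lowest and highest libraries. The log2 fold change was 0.90 ± 0.43 (edgeR adjusted p = 0.394). It was 1.11 ± 0.32 without BKO-1 and 0.60 ± 0.39 without BKO-3, where that of Zfp36l1 was larger (0.85 ± 0.22). The adjusted p of Npas4 was 0.178 to 0.978 over all alternatives.

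Sik1, a kinase induced by cAMP that restrains CREB coactivators, was at 22.3 to 30.9 CPM (median 27.003) in BKO and 18.5 to 26.2 CPM (median 23.5) in Cre, a log2 fold change of 0.22 ± 0.10 (edgeR adjusted p = 0.345). Arc, best known from synapses, was at 2.41 to 4.07 CPM in BKO and 2.22 to 4.44 CPM in Cre. Its log2 fold change of 0.025 ± 0.19 was far smaller than its standard error (edgeR adjusted p = 0.980).

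The HSP70 genes combined high medians in BKO with wide disagreement among the BKO libraries. Hspa1a and Hspa1b encode the inducible HSP70. Hspa1a was at 23.7 to 172 CPM (median 111) in BKO and 52.3 to 85.0 CPM (median 57.9) in Cre. Hspa1b was at 22.1 to 164 CPM (median 107) in BKO and 48.9 to 77.9 CPM (median 60.7) in Cre. In both, 5 BKO libraries were above all Cre libraries and BKO-1 was below all of them.

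The log2 fold change was 0.79 ± 0.38 for Hspa1a (edgeR adjusted p = 0.412) and 0.80 ± 0.37 for Hspa1b (edgeR adjusted p = 0.394). Without BKO-1 it was 0.99 ± 0.20 for Hspa1a and 1.00 ± 0.16 for Hspa1b, and without BKO-5 it was 0.64 ± 0.40 for Hspa1a and 0.64 ± 0.38 for Hspa1b. Over all alternatives the adjusted p was 0.106 to 0.978 for Hspa1a and 0.0743 to 0.980 for Hspa1b. The pair cannot be counted as separate measurements: their longest open reading frames were the same at 1918 of 1929 aligned positions, and 247 of the 250 bases before the start were the same. How the reads of shared sequence were handled is uncertain. Reads without a unique alignment were held in a summary line that names no gene, so both levels may be too low.

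Dnajb1, the HSP40 partner that hands clients to HSP70, was at 49.8 to 91.6 CPM (median 66.5) in BKO and 49.7 to 62.3 CPM (median 53.2) in Cre. It was the only heat shock member among the 19, with a log2 fold change of 0.32 ± 0.12 (edgeR adjusted p = 0.279) and 4 BKO libraries above the Cre range. Without BKO-5 it was 0.20 ± 0.090, and with the endothelial covariate -0.00087 ± 0.16. Hsph1, the nucleotide exchange factor HSP110, was at 130.3 to 311 CPM (median 239.7) in BKO and 169 to 229 CPM (median 199) in Cre (log2 fold change 0.22 ± 0.16, edgeR adjusted p = 0.625). Its log2 fold change was 0.34 ± 0.083 without BKO-1, which was below all controls, and 0.11 ± 0.15 without BKO-5, with an adjusted p of 0.117 to 0.998 over all alternatives.

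The BKO libraries did not all show the same members high. BKO-2 was above all Cre libraries for 30 of the 35 tested members and BKO-5 for 28, while BKO-1 was above them for 5 and below them for 11. BKO-2 was the highest BKO library for 17 members, among them Ier2, Ier3, Klf10, Dusp1, Dusp6, Zfp36 and Zfp36l1. BKO-3 was the highest for 7, namely Fos, Fosb, Jun, Egr1, Nr4a1, Npas4 and Hspa1a, and the lowest for 11, among them Fosl2, Junb, Maff, Ier3, Klf4, Klf10, Sik1 and Myc. BKO-1 was the lowest for 16, including all 4 heat shock genes, Fosb, Npas4, Jun and Nr4a1. The log2 range was wider in BKO than in Cre for 28 of the 35 tested members, beside 62.6% of all genes.

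**Figure D4:**
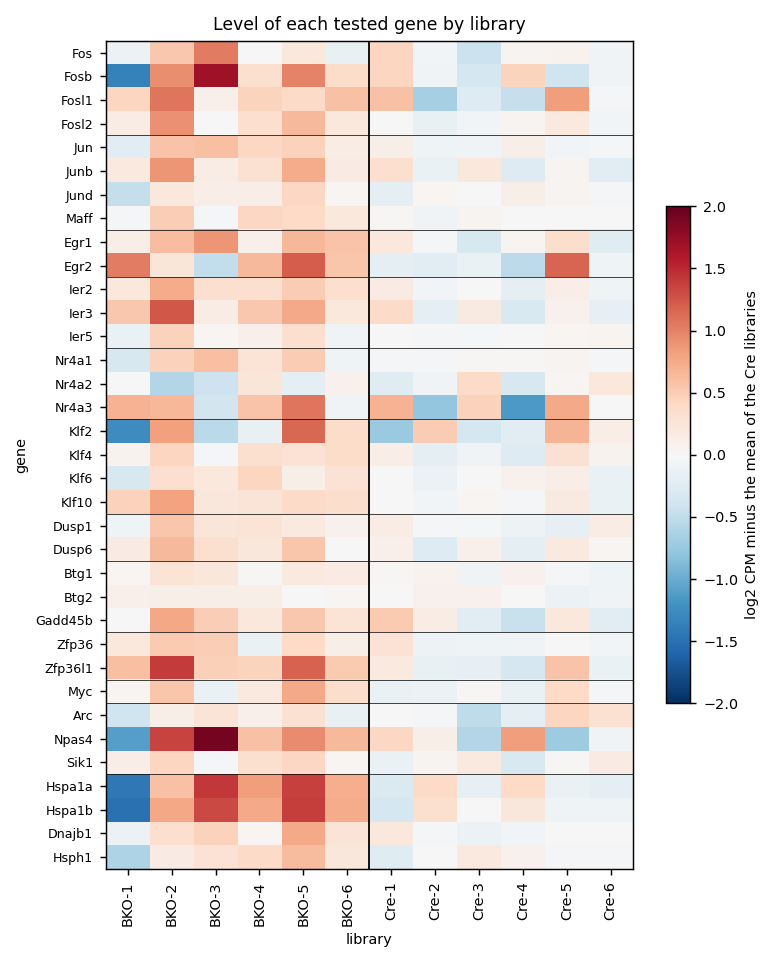
Level of each of the 35 tested members (rows, by role) in each library (columns, BKO left of Cre), as log2 CPM minus the mean of the Cre libraries; red is higher and blue lower. BKO-2 and BKO-5 are red in most rows, BKO-3 in Fosb, Npas4, Hspa1a and Hspa1b, and BKO-1 is blue in those same 4 rows.

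Other genes of the pathway are described by 4 lists, read beside the shares over all genes, 52.8% positive and 8.7% higher at an unadjusted p under 0.05. Differences between the lists were not tested. Of 24 upstream regulators (CREB, SRF and ETS factors, their coactivators and kinases), 15 were positive, 2 were higher and 0 lower at that p, close to the shares over all genes, and the median log2 fold change was 0.036. They were Rps6ka1, an ERK-activated kinase, at 4.30 to 11.6 CPM in BKO and 4.69 to 6.13 CPM in Cre (log2 fold change 0.46 ± 0.19, edgeR adjusted p = 0.301), and the ETS factor Elk3 (0.16 ± 0.067, adjusted p = 0.316). Srf itself was at 0.17 ± 0.091 and the cAMP-dependent kinase gene Prkaca at -0.12 ± 0.064.

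Of 11 further ERK feedback genes, 10 were tested and 9 were positive, with a median of 0.21 and 4 higher at an unadjusted p under 0.05. Dusp5, a nuclear ERK phosphatase, did not overlap between groups, at 32.3 to 38.7 CPM in BKO and 27.8 to 31.1 CPM in Cre (log2 fold change 0.24 ± 0.060, edgeR adjusted p = 0.148). The others were the EGF receptor inhibitor Errfi1 (0.44 ± 0.16), Spred3 (0.32 ± 0.12) and Dusp4 (0.14 ± 0.065). After edgeR's adjustment over all genes, 0 of the 10 were called.

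Of 28 other early response genes, 24 were positive and the median was 0.23. By edgeR's unadjusted p, 11 were higher, and 0 had an adjusted p under 0.05. Id1, an inhibitor of helix-loop-helix factors and a BMP target, was at 14.4 to 23.3 CPM in BKO and 8.82 to 17.2 CPM in Cre (log2 fold change 0.65 ± 0.15, edgeR adjusted p = 0.135). The kinase gene Plk2 (0.30 ± 0.092), Phlda1 (0.44 ± 0.14) and the kinase gene Sgk1 (0.35 ± 0.12) came next by p. All 4 had every BKO library above the Cre mean.

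Of 23 further heat shock genes, 20 were positive and 5 were higher by edgeR's unadjusted p, with a median of 0.084 and 0 called after adjustment. The small heat shock protein gene Hspb8 was at 11.8 to 23.5 CPM in BKO and 8.58 to 15.1 CPM in Cre (log2 fold change 0.60 ± 0.17, edgeR adjusted p = 0.169). Bag3, an HSF1 target that works with Hspb8, was at 0.23 ± 0.076 and Hsp90aa1, the inducible HSP90, at 0.19 ± 0.079. Serpinh1, at 0.58 ± 0.19, encodes the collagen chaperone HSP47 and is made mainly by matrix-producing cells.

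Markers of other cell types differed between the same libraries. All 12 endothelial markers were positive and 11 were higher at an unadjusted p under 0.05, with none at or under 3 reads in every library. Their summed level was 602 to 863 CPM in BKO and 475 to 682 CPM in Cre, with Pecam1 at 99.1 to 127 CPM in BKO and 74.0 to 101 CPM in Cre. Of 10 stellate and mesenchymal markers 9 were positive and 6 higher by the same p, with sums of 60.7 to 105 CPM in BKO and 39.6 to 92.4 CPM in Cre. Of 8 duct markers 5 were positive and 4 higher, with sums of 1636 to 2807 CPM in BKO and 1925 to 2499 CPM in Cre. Of 10 acinar markers 8 were tested and 1 was at or under 3 reads in every library. The 8 were all positive and none with an unadjusted p under 0.05, with sums of 1267 to 4624 CPM in BKO and 206 to 5819 CPM in Cre.

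β-cell markers went the other way, with 9 of 10 negative, 3 of them lower at an unadjusted p under 0.05 and a median of -0.20. Their sums were 97991 to 156260 CPM in BKO and 121158 to 152444 CPM in Cre. Of 8 macrophage markers 7 were negative, and 2 were lower and 1 higher by the same p. Their sums were 60.9 to 117 CPM in BKO and 84.2 to 128 CPM in Cre. Alpha, delta and PP cell markers were all positive (7 of 7), 6 of them higher by the same p, with a median of 0.41. Their sums were 16746 to 33667 CPM in BKO and 12559.6 to 19823 CPM in Cre. In whole islets, fewer cells of a type and less RNA per cell cannot be told apart.

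Library by library, the mean log2 CPM of the 31 tested immediate early genes was highest in BKO-2 (4.95) and BKO-5 (4.88). These libraries also had the highest endothelial means (5.66 and 5.75) and duct means (5.49 and 5.47). Among BKO libraries they had the highest stellate (2.92 and 2.77), acinar (6.30 and 6.71) and macrophage means (2.30 and 2.16) as well. Their β-cell means (9.83 and 9.79) were the lowest of the BKO libraries. Among controls the immediate early mean was highest in Cre-5 (4.52). There the endothelial mean (5.41) and the stellate mean (2.77) were also the highest of the Cre libraries. BKO-3 had the lowest stellate (1.82) and duct (4.52) means of the BKO libraries. BKO-1 had the lowest immediate early (4.32), heat shock (5.43) and endothelial (5.24) means of the BKO libraries and their highest β-cell mean (10.32). Its acinar (4.96) and macrophage (1.49) means were also the lowest of the BKO libraries. Its alpha, delta and PP cell mean (8.89) was the highest of all libraries, while the β-cell means of Cre-2 (10.36) and Cre-4 (10.33) exceeded its own. The endothelial mean of BKO-1 was above that of 5 of the 6 Cre libraries. The part of these cell types in the differences was not tested.

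**Figure D5:**
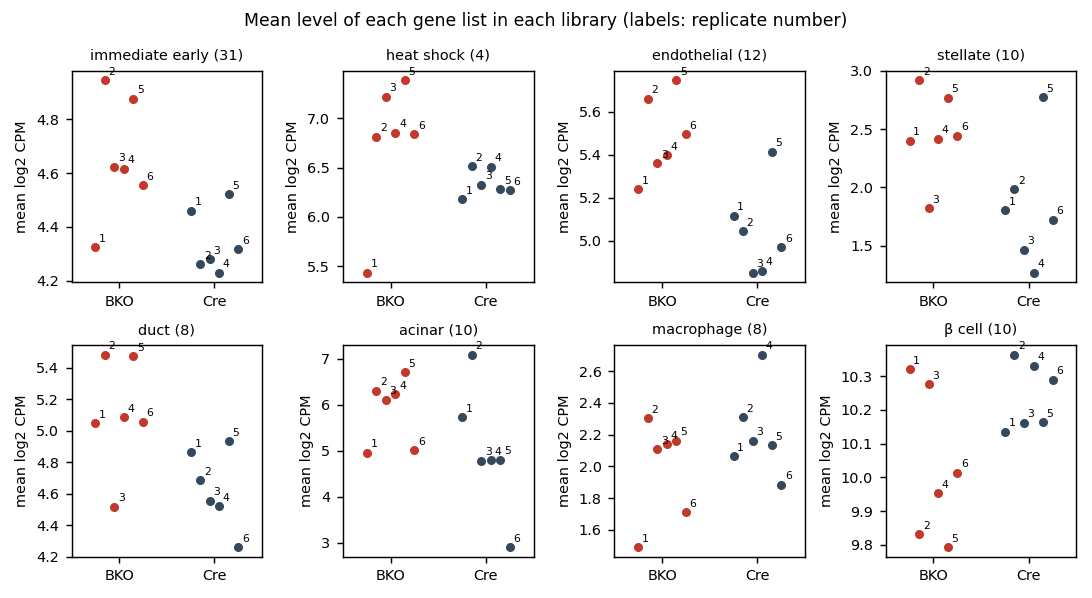
Mean log2 CPM of each gene list (y axis, number of genes in brackets) in each library, BKO left of Cre, labelled by replicate number; these are means over genes, so levels are compared within a panel. BKO-2 and BKO-5 lead the BKO libraries in the immediate early, endothelial, stellate, duct, acinar and macrophage panels. They are the lowest in the β-cell panel, and BKO-1 is far below all others in the heat shock panel.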

How the data were processed

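RNA of 12 islet libraries was extracted with TRIzol and sequenced as paired-end reads, per the labels' protocols. HISAT2 2.0.5, HTSeq and mm10 are named in the submitters' processing notes. The sources used here do not give the annotation, the HTSeq version or the strand setting. The deposited files list unnormalized read counts for each gene symbol. The summary lines of htseq-count name no gene and were left out. They held 8.84% to 11.2% of reads (no feature), 1.05% to 1.27% (ambiguous), 16.7% to 27.3% (low alignment quality), 1.72% to 3.00% (not aligned) and 4.79% to 5.61% (not unique). The low-quality share was highest in Cre-1, at 27.3%, and next highest in Cre-6, at 22.2%. A second deposited table of the whole series was not used.

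Genes were tested with edgeR 4.0.16 (R 4.3.3) after filterByExpr by genotype, which kept 13583 genes, and TMM scaling. The quasi-likelihood fit used robust shrinkage, and p-values were adjusted over every gene by Benjamini-Hochberg, with a threshold of 0.05. The biological coefficient of variation was 11.7%. Standard errors come from the quasi-likelihood F statistic. Means over lists use log2 CPM with a prior count of 2. No pair of replicate libraries agreed within sampling noise (lowest chi-square 4.84 times its degrees of freedom). The code was tested on simulated data.

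Alternatives were RLE and upper-quartile scaling, all genes or only those with 10 reads or more in every library, DESeq2 1.42.0, limma 3.58.1 voom with quality weights, a fit without robust shrinkage, a block for replicate number, endothelial or acinar means as a covariate, an adjusted p under 0.1, and each library left out. The members and lists were chosen with earlier results of these data known. Values are given for members with an unadjusted p under 0.05, the most abundant of each role, all heat shock members and, per further list, the 4 genes with the smallest p; members outside this are named as such. Coordinates, exon lengths and overlaps come from GENCODE M21 (GRCm38), and promoters from RefSeq. Jun, Junb, Jund, Fosl1, Dusp1, Zfp36, Zfp36l1 and Hspa1a overlap other annotated genes, so without the strand setting their reads cannot be assigned with certainty.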

Additional observations from a re-analysis of the deposited data

Results flagged for a closer look

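In 8 of 120 groups of 6 libraries examined, 1 library lay so far from the other 5 that its gap to the nearest of them, divided by the range of the group, passed Dixon's 95% critical value of 0.625; chance does this in about 1 in 20 groups. In BKO, BKO-1 had a mean heat shock level of 5.43 on the log2 CPM scale, below the other BKO libraries, and BKO-2 had the highest Klf10, at 51.4 CPM. In Cre, Cre-5 stood above the others for Egr2 (1.81 CPM), Myc (29.0 CPM), the ETS factor gene Elk3 (43.4 CPM) and the EGF receptor inhibitor gene Errfi1 (59.3 CPM). Cre-1 stood above the others for Zfp36 (33.5 CPM) and Dnajb1 (62.3 CPM). Cre-5 also had the highest endothelial mean of the Cre libraries, whose part in these values was not tested.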

How the results depend on the processing

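With edgeR at an adjusted p under 0.05, 0 genes and 0 members were called. DESeq2 called 223 genes and 5 members. Leaving out 1 library gave 0 to 262 genes and 0 to 2 members: 5 genes without BKO-3, 262 without BKO-4 (Ier2 and Klf10 among them), 6 without Cre-1 and 110 without Cre-5 (Klf10 among them). Libraries with the same number deviated together, with a correlation over 0.1, in 4 of 6 pairs, and 7 of 12 libraries correlated best with their own number, a hint of pairing from the data that the labels do not state and that the other 2 pairs (-0.0725 and -0.0467) did not show. Correlations between BKO and Cre libraries of different numbers ran from -0.299 to 0.283, and the highest for the same number was 0.264. The numbers were therefore not treated as pairing the samples. With the replicate number as a block, 364 genes and 3 members (Ier2, Klf10 and Zfp36l1) were called. The median log2 fold change of the immediate early genes was 0.24 to 0.37 and that of the heat shock genes 0.42 to 0.69 with 1 library left out. With the endothelial mean as a covariate they were 0.063 and 0.19. That mean differed between BKO and Cre, so its part and that of genotype cannot be cleanly told apart in this fit.

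Of 1119 values of single genes under the alternatives, 21 reached an adjusted p under 0.05 and 23 changed sign. Among genes of the further lists, Id1 was called by DESeq2, with the block, without BKO-4 and without Cre-5. Hspb8 was called by DESeq2, with the block and without BKO-4. Dusp5 was called by DESeq2, and Phlda1 and Serpinh1 with the block. With the endothelial covariate the log2 fold change was -0.15 for Jund, -0.11 for Ier5, -0.075 for Klf4, -0.13 for Gadd45b, -0.20 for Myc, -0.00087 for Dnajb1, -0.24 for Fosl1, -0.15 for Egr2, 0.046 for Nr4a2, -0.27 for Nr4a3, -1.17 for Klf2 and -0.43 for Arc. By the same fit it was -0.032 for Rps6ka1, -0.014 for Elk3, -0.041 for Srf, -0.049 for Errfi1 and -0.022 for Phlda1. With 1 library left out, Arc ranged from -0.083 to 0.13 and Klf2 from -0.084 to 0.40. The cause of these shifts was not tested. Genes under about 5 CPM, such as Egr2, Nr4a3, Klf2 and Arc, rest on few reads.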
